A study of Mus musculus with 6 samples.

Results

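Expression of the bone morphogenetic proteins (BMPs) and of their secreted antagonists was followed in mouse bone and in cultured osteoblasts. There were 9 such genes out of 48733 named genes, chosen by name alone: the ligands *Bmp2*, *Bmp3*, *Bmp4*, *Bmp5*, *Bmp6* and *Bmp7* and the antagonists *Nog* (noggin), *Grem1* (gremlin 1) and *Chrd* (chordin). RNA-seq was performed on 6 libraries from the Collaborative Cross strain CC016/GeniUnc, with no gene altered and no animal treatment named in the labels. Of these, 3 libraries were labelled bone, meaning the cortical shaft of the femur after the marrow had been removed. The other 3 were labelled osteoblasts, meaning adherent marrow stromal cells differentiated for 8 days in medium with dexamethasone (10 nM), beta-glycerophosphate (10 mM) and ascorbic acid (50 µg/ml). Such cultures were not sorted, so they can hold other adherent marrow cells, and a bone shaft can keep marrow, vessels and attached tissue.

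BMPs are secreted dimers of the TGF-beta superfamily that were named for their ability to induce bone at ectopic sites. They bind complexes of type I and type II serine/threonine kinase receptors, which phosphorylate SMAD1, SMAD5 and SMAD9; these join SMAD4 and turn on targets such as the *Id* genes. Noggin, gremlin 1 and chordin bind BMPs outside the cell and keep them from their receptors, and osteoblasts make both ligands and antagonists.

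The markers of blood and tissue did not follow the labels. *Hbb-bt*, an adult beta-globin gene of red cells, was at 34838 FPKM (fragments per kilobase of transcript, scaled to the mapped fragments of a library) in bone replicate 3 and at 34268 and 48650 in osteoblasts replicates 2 and 3, but only at 3.43 to 7.05 in the remaining 3 libraries, bone replicates 1 and 2 and the first of the osteoblasts. The summed neutrophil markers (13330 to 16310 against 0.110 to 5.14 FPKM), skeletal muscle markers (221 to 943 against 0.0324 to 1.09), chondrocyte markers (180 to 316 against 8.79 to 27.7) and endothelial markers (33.5 to 47.1 against 0.273 to 5.04) were split in the same way, and every marker of these lists with a named feature was higher in the 3 *Hbb-bt*-rich libraries. *Tnnt3* and *Col9a1*, which mark muscle and cartilage, were listed at 0 in each of the other 3. The macrophage markers were split in the other direction, 303 to 394 against 1037 to 2035 FPKM, with 5 of 5 lower in the *Hbb-bt*-rich libraries. By these markers bone replicates 1 and 2 and osteoblasts replicates 2 and 3 went against their labels. Osteoblast markers were present in all 6 libraries, with sums of 1676 to 2404 FPKM in the *Hbb-bt*-rich libraries and 2769 to 4530 in the others. Of the 5 with a named feature, 2 (*Alpl* and *Ibsp*) were lower in every *Hbb-bt*-rich library. *Col1a1*, *Sp7* and *Runx2* overlapped, *Runx2* being at 10.8 to 15.1 against 5.78 to 10.9 FPKM. The 3 osteocyte markers with a named feature went in different directions: *Sost* was higher in the *Hbb-bt*-rich libraries (15.8 to 22.7 against 0.0661 to 0.198 FPKM), *Dmp1* was lower (22.5 to 24.3 against 50.0 to 127) and *Phex* overlapped, and their sum was lower (45.4 to 51.4 against 55.3 to 133). The deposited labels were kept throughout, and the *Hbb-bt* level is given beside each library as a description. Depth was estimated at 13.6 to 22.6 M aligned pairs, at which 3 pairs on a 1 kb transcript would give 0.133 to 0.221 FPKM. Features without a gene name took 71.5% of all FPKM in bone replicate 2 and 65.0% in osteoblasts replicate 1. In the other 4 they took 27.4% to 30.7%. The share of reads on these features was not measured, so any lowering of the FPKM of named genes was not tested.

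The 9 genes did not all run in the same order across the libraries. *Grem1* was the most abundant of the 9 genes in the 3 libraries with little *Hbb-bt*. It was the least abundant in bone replicate 3 and came behind *Bmp6*, *Bmp3* and *Bmp4* in osteoblasts replicates 2 and 3, whereas *Bmp6* had the highest FPKM of the 9 in all 3 *Hbb-bt*-rich libraries. Neither followed the deposited labels, and all 9 genes overlapped between bone and osteoblasts.

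**Figure D1:**
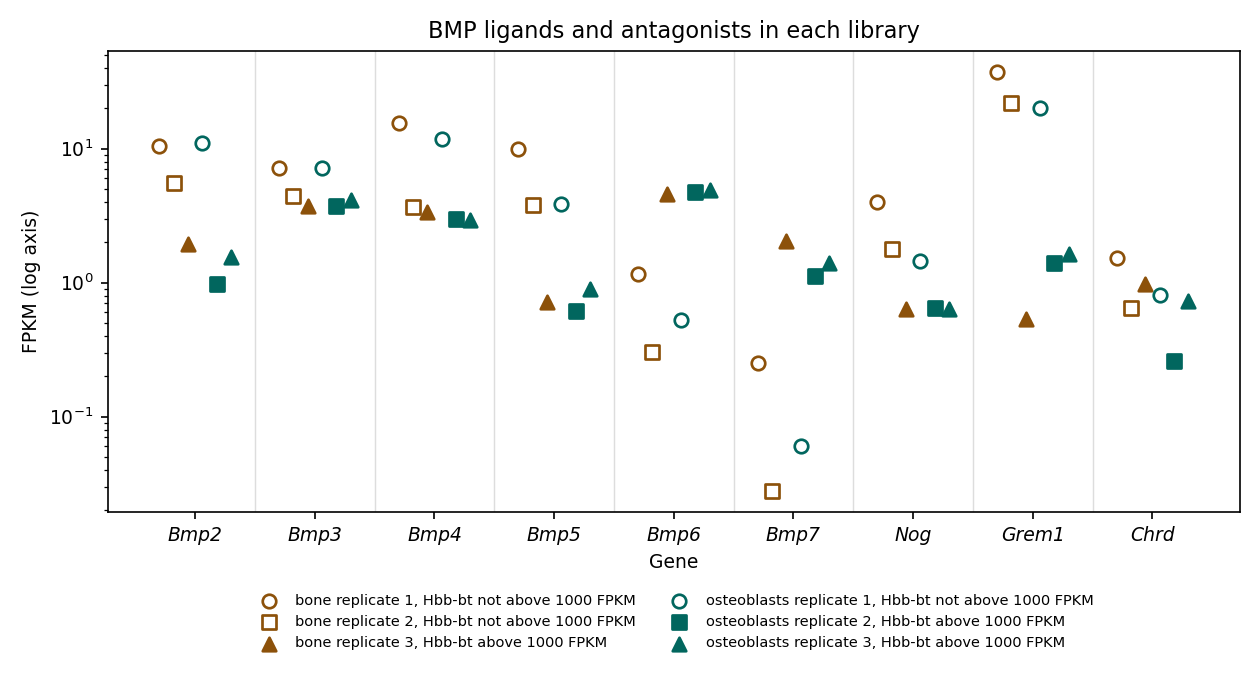
FPKM of each BMP ligand and antagonist (logarithmic y axis) in the 6 libraries, each point being 1 library under its deposited label, with libraries above 1000 FPKM of *Hbb-bt* marked. *Grem1* spans 0.536 to 37.5 FPKM, and the libraries part by *Hbb-bt* and not by label for 8 of the 9 genes, as 55.3% of all genes do by *Hbb-bt* and 0.916% by label.

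Among the ligands, *Bmp2*, one of the most osteoinductive BMPs, was at 10.5, 5.53 and 1.93 FPKM in bone replicates 1, 2 and 3 and at 11.0, 0.980 and 1.56 in osteoblasts replicates 1, 2 and 3. The high libraries were bone replicates 1 and 2 and osteoblasts replicate 1, and the lowest of them was 2.87 times the highest *Hbb-bt*-rich library. *Bmp4*, a close homologue of *Bmp2* that binds the same receptors, was at 15.6, 3.65 and 3.38 FPKM in bone and at 11.8, 2.98 and 2.93 in osteoblasts. Bone replicate 2, whose FPKM lie mostly on unnamed features, was 1.08 times the highest *Hbb-bt*-rich library, and 2.66 times when FPKM were scaled to the named genes alone.

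*Bmp3*, an unusual member of the family that opposes the osteogenic BMPs, had the narrowest range of the 9 genes. It was at 7.13, 4.40 and 3.71 FPKM in bone and at 7.15, 3.71 and 4.14 in osteoblasts. Its highest library was 1.93 times its lowest, and the gap between *Hbb-bt*-poor and *Hbb-bt*-rich libraries was 1.06 times. Scaled to the named genes, these ratios became 4.33 and 2.38, still the narrowest range of the 9. *Bmp5*, the gene mutated in the mouse short ear strain and a regulator of skeletal shape, was at 9.95, 3.79 and 0.716 FPKM in bone and at 3.84, 0.615 and 0.894 in osteoblasts. Here the 3 *Hbb-bt*-rich libraries were all below 1 FPKM and the others all at 3.79 or more, a gap of 4.24 times.

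*Bmp6*, a ligand of the *Bmp5* and *Bmp7* subfamily that is also known as the iron-regulated BMP of the liver, was at 1.16, 0.304 and 4.54 FPKM in bone and at 0.522, 4.70 and 4.88 in osteoblasts. It was highest in the 3 *Hbb-bt*-rich libraries, by 3.93 times at the narrowest. The deposited read coverage of *Bmp6* was far below what these FPKM would imply: its coverage per FPKM was 0.0926 to 0.154, against a most frequent value of 2.04 to 3.39 in the same libraries. Put on the FPKM scale by that value, the coverage of *Bmp6* came to 0.0526, 0.0138 and 0.199 in bone and 0.0238, 0.214 and 0.217 in osteoblasts. Some other genes fell short by less. In bone replicate 1, *Chrd* was at 1.53 by FPKM and 0.756 by coverage, *Bmp7* at 0.250 and 0.0832, and *Bmp4* at 15.6 and 11.5. *Bmp2*, *Nog* and *Grem1* nearly matched there. For *Bmp6* the order of the libraries was the same by either column, but its level relative to other genes was not. By coverage, bone replicates 1 and 2 and osteoblasts replicate 1 lay under the approximate *Bmp6* floors for 3 read pairs (0.0540, 0.0611 and 0.0660). The *Bmp6* feature also overlaps 224 bases of *Txndc5* on the other strand, a gene at 31.4 to 63.0 FPKM. Of the 75-base stretches of *Bmp6*, 162 (4.95%) also occur in that gene. The library kit did not mark strand, so reads of that stretch cannot be told apart, and its part in the *Bmp6* level was not tested.

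*Bmp7*, a ligand also called osteogenic protein 1, was by FPKM the least abundant ligand in the libraries with little *Hbb-bt*. By coverage *Bmp6* was lower there, at 0.0799% to 0.139% of ligand coverage against 0.162% to 0.220% for *Bmp7*. *Bmp7* was at 0.250, 0.0280 and 2.04 FPKM in bone and at 0.0603, 1.12 and 1.41 in osteoblasts, with all 3 *Hbb-bt*-rich libraries above 1. The lowest value, in bone replicate 2, did not exceed what 3 read pairs would give, so *Bmp7* was not detectable above counting error there. In osteoblasts replicate 1 its 0.0603 FPKM lay at that approximate floor (0.0602).

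Among the antagonists, *Grem1*, which binds BMP2, BMP4 and BMP7, was at 37.5, 22.0 and 0.536 FPKM in bone and at 20.0, 1.41 and 1.64 in osteoblasts. The lowest of the libraries with little *Hbb-bt* was 12.1 times the highest *Hbb-bt*-rich one, the widest such gap of the 9 genes. Placed among genes at 1 FPKM or more in its own library, *Grem1* stood at percentiles 87.7 and 88.3 in bone replicates 1 and 2, at 83.6 in osteoblasts replicate 1, and at 8.79 and 13.3 in osteoblasts replicates 2 and 3, while bone replicate 3 fell below 1 FPKM. *Nog*, whose product blocks the receptor-binding surfaces of BMPs, was at 3.98, 1.78 and 0.638 FPKM in bone and at 1.46, 0.643 and 0.629 in osteoblasts. The 3 *Hbb-bt*-rich libraries were close to one another, and osteoblasts replicate 1 was 2.27 times the highest of them.

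*Chrd*, whose product is cut by tolloid proteases to free bound BMPs, was at 1.53, 0.649 and 0.967 FPKM in bone and at 0.813, 0.259 and 0.725 in osteoblasts. It was the one gene whose *Hbb-bt*-rich and *Hbb-bt*-poor libraries overlapped. Scaled to the named genes alone, *Chrd* no longer overlapped, and the *Hbb-bt*-rich libraries were lower. The gene shares 1385 bases with *Thpo*, which was listed at 0 FPKM in every library.

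In all, 6 of the 9 genes (*Bmp2*, *Bmp3*, *Bmp4*, *Bmp5*, *Nog* and *Grem1*) were lower in every *Hbb-bt*-rich library than in any other, where 16.9% of the 12112 genes with a mean of at least 1 FPKM were. *Bmp6* and *Bmp7* were higher in every such library, where 38.4% of genes were, and in either direction 55.3% of genes parted these libraries. Under scaling to the named genes these background shares became 48.6% lower and 21.4% higher, so the counts of these genes cannot be read apart from the scaling. The gaps widened under that scaling for *Grem1* (25.6 times), *Bmp5* (9.06), *Bmp2* (7.06) and *Nog* (4.90) and narrowed for *Bmp7* (3.11) and *Bmp6* (2.67), each in the same direction as before. Such scaling multiplies every gene of a library by the same factor, which was larger in each *Hbb-bt*-poor library than in any rich one. The widening and narrowing therefore follow from the scaling and are not particular to these genes. In the *Hbb-bt*-rich libraries blood, neutrophil, muscle and cartilage markers were high and macrophage markers low, as given above, and the part of those cells in the BMP levels was not tested. In such bulk samples, fewer cells of a type and less RNA per cell cannot be told apart.

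Because FPKM depends on what else is in a library, the genes were also set against each other within libraries. *Grem1* FPKM was 3.58, 3.98 and 1.82 times that of *Bmp2* in the 3 libraries with little *Hbb-bt* (bone 1, bone 2, osteoblasts 1), and 0.278, 1.43 and 1.06 times in the 3 rich in it (bone 3, osteoblasts 2, osteoblasts 3). The 3 antagonists summed to 0.965, 1.38 and 0.131 of the summed ligand FPKM in bone and to 0.648, 0.164 and 0.190 in osteoblasts. With *Bmp6* left out of the ligands, whose level depends on the column used, these ratios were 0.991, 1.41 and 0.182 in bone and 0.658, 0.245 and 0.274 in osteoblasts. Either way the 3 *Hbb-bt*-rich libraries had the 3 lowest ratios. *Grem1* made up 87.2%, 90.1% and 25.0% of the antagonist sum in bone and 89.8%, 60.9% and 54.8% in osteoblasts.

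The make-up of the ligand pool differed between the libraries in the same way. *Bmp2* and *Bmp4* together with *Bmp5* made up most of the pool where *Hbb-bt* was low. *Bmp2* was 23.5%, 31.2% and 11.8% of ligand FPKM in bone and 32.0%, 6.95% and 9.86% in osteoblasts. *Bmp5* was 22.4%, 21.4% and 4.39% in bone and 11.2%, 4.36% and 5.66% in osteoblasts. *Bmp7* was 0.562%, 0.158% and 12.5% in bone and 0.176%, 7.97% and 8.89% in osteoblasts. All 3 shares parted the libraries by *Hbb-bt* without overlap. *Bmp3* held 16.0% to 26.3% and *Bmp4* 18.5% to 35.0% of the pool in any library.

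The share of *Bmp6* depended on the column used. From FPKM it was 2.60%, 1.72% and 27.9% in bone and 1.52%, 33.3% and 30.9% in osteoblasts, the largest share of any ligand in the 3 *Hbb-bt*-rich libraries. From coverage it was 0.139%, 0.0873% and 2.00% in bone and 0.0799%, 2.68% and 2.38% in osteoblasts, and *Bmp3* was then the largest in the *Hbb-bt*-rich libraries, with 32.0%, 38.1% and 36.6%. With *Bmp6* left out of the pool, *Bmp3* likewise led there, with 31.5%, 39.5% and 37.9% of FPKM.

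**Figure D2:**
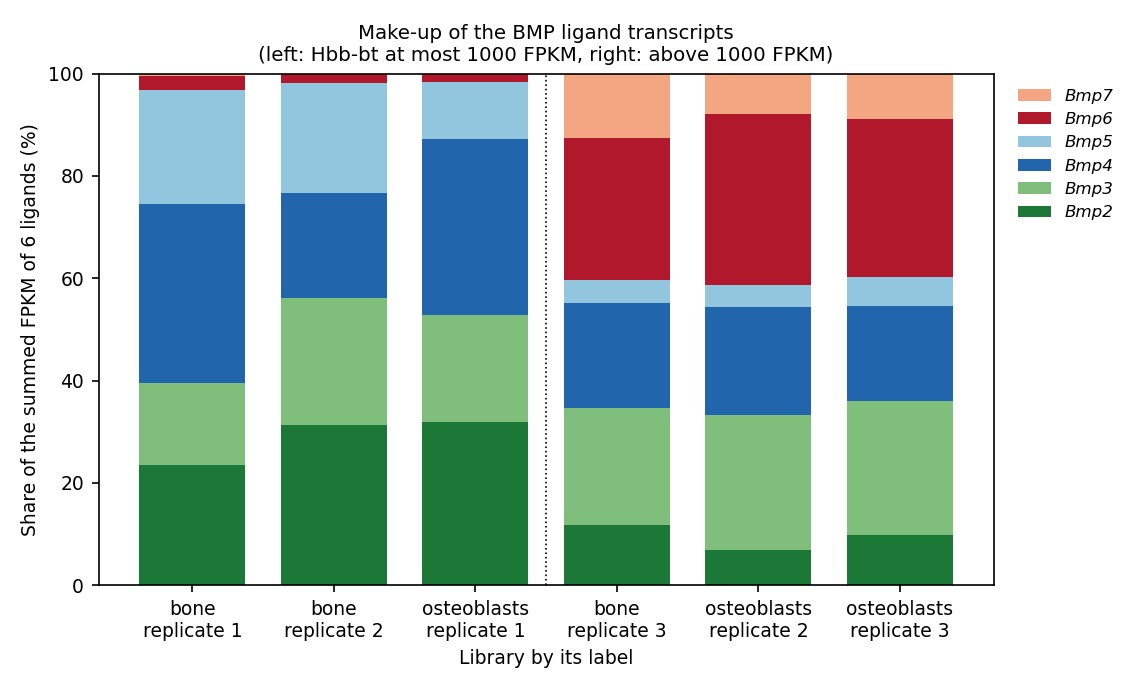
Share of each of the 6 ligands in the summed ligand FPKM (y axis, percent) of each library under its deposited label. *Bmp6* takes 27.9% to 33.3% in the 3 *Hbb-bt*-rich libraries and 1.52% to 2.60% in the others by FPKM, a level its read coverage does not match.

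The comparison that the labels imply, osteoblasts against bone, asks which genes differ between bone tissue and the cells grown from its marrow. None of the 9 genes differed beyond the spread between libraries. *Grem1* averaged 20.0 ± 18.5 FPKM in bone and 7.67 ± 10.6 in osteoblasts (SD, n = 3 each), and *Bmp5* 4.82 ± 4.71 and 1.78 ± 1.78. *Bmp2* averaged 5.97 ± 4.29 and 4.50 ± 5.60, *Bmp4* 7.53 ± 6.97 and 5.89 ± 5.08, and *Nog* 2.13 ± 1.70 and 0.911 ± 0.475. The SDs of *Bmp2*, *Bmp4*, *Bmp5* and *Grem1* were of the size of the means, and in bone the SDs of *Bmp6* and *Bmp7* exceeded their means. *Bmp3* averaged 5.08 ± 1.81 and 5.00 ± 1.87, *Bmp6* 2.00 ± 2.24 and 3.37 ± 2.47, *Bmp7* 0.772 ± 1.10 and 0.863 ± 0.709, and *Chrd* 1.05 ± 0.444 and 0.599 ± 0.298. Ordered by these means, *Grem1* came first under both labels and *Bmp4* next, but none of the 8 steps between neighbours in either order exceeded the larger of the SDs involved.

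On the log2(FPKM + 1) scale, fitted with limma across all genes, *Grem1* was −1.12 in osteoblasts minus bone (SE 1.24, 95% interval −3.92 to 1.68). *Bmp5* was −0.87 (−2.49 to 0.76), *Bmp2* −0.62 (−2.33 to 1.10), *Nog* −0.59 (−1.76 to 0.57), *Bmp4* −0.25 (−1.78 to 1.27) and *Bmp3* −0.02 (−1.01 to 0.97). *Bmp6* was 0.57 (−1.02 to 2.16) from FPKM and 0.08 from coverage, where the added 1 outweighs its low values, and its ratio of means was 1.68 from FPKM and 1.71 from coverage. These intervals leave room for changes of more than a log2 unit in either direction for *Grem1*, *Bmp2*, *Bmp4*, *Bmp6* and *Bmp7*, so the comparison does not show that the labels are alike. The Benjamini-Hochberg adjusted p of limma was 0.999 for each of the 7 genes with a mean of at least 1 FPKM, and 1.00 for *Bmp7* (0.16, −1.13 to 1.45) and *Chrd* (−0.35, −1.18 to 0.47), which were fitted without that filter. Over all genes 0 of 12112 passed (0%), with 17 at an unadjusted p under 0.05, and with the replicate number as a block 0 of the 9 genes passed where 0.405% of all genes did. The median difference was −0.59 over the 7 genes and 0.12 over all genes tested. Scaling to the named genes moved the median of all genes by −0.15, and relative to the median *Grem1* was −1.24 before and −1.27 after that scaling, *Bmp2* −0.74 and −0.69, and *Bmp6* 0.45 and 0.51. By order alone, 0 of the 9 genes parted the labels without overlap, where 0.916% of genes did. The study's methods name 3 mice, but the labels do not tie a library to an animal, so the p-values measure the spread between these libraries.

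By the blood, neutrophil, muscle, cartilage and endothelial markers, only bone replicate 3 and osteoblasts replicate 1 were in keeping with their labels. The osteocyte markers were mixed. *Sost* was at 18.8 FPKM in bone replicate 3 and 0.198 in osteoblasts replicate 1, *Dmp1* at 24.3 and 127, and *Phex* at 4.61 and 5.77. Between these libraries, without a test, 8 of the 9 differences had the opposite sign to the comparison of all 6: *Grem1* was 3.77 higher in osteoblasts on the log2(FPKM + 1) scale, *Bmp2* 2.03, *Bmp4* 1.54, *Bmp5* 1.50, *Bmp3* 0.79 and *Nog* 0.59 higher, while *Bmp6* was −1.86 and *Bmp7* −1.52. Bone replicate 3 is rich in *Hbb-bt* and osteoblasts replicate 1 is not, so the signs of these 8 differences restate the split given above. The share of all genes that turned in this way was not counted. For these 8 genes the direction by label rested on which libraries were counted.

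**Figure D3:**
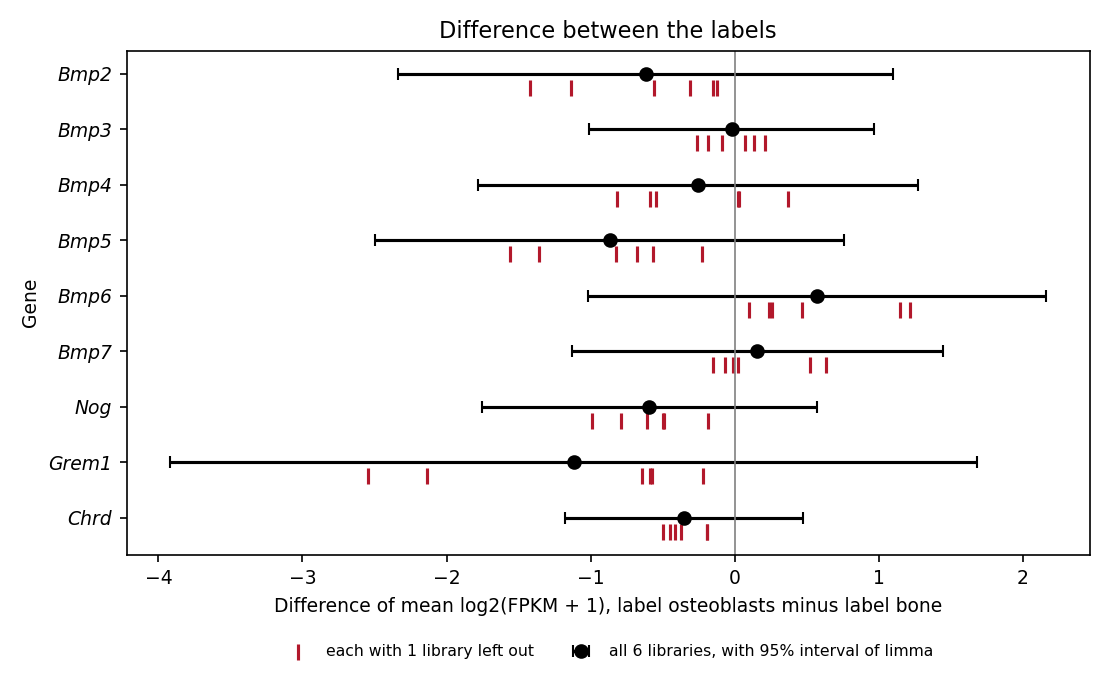
Difference of each gene in osteoblasts minus bone on the log2(FPKM + 1) scale (x axis): black points with bars give the value over all 6 libraries and the 95% interval of limma, and red ticks the value with each library left out in turn. All 9 intervals cross 0, and the ticks of *Grem1* run from −2.54 (without bone replicate 3) to −0.22.

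Other genes of the pathway were taken from a list of 56, of which 46 had a named feature and 31 a mean of at least 1 FPKM. With limma, 0 of these 31 were higher and 0 lower in osteoblasts than in bone, with a median difference of −0.19. By order of the libraries, 14 of the 31 were lower and 1 higher in every *Hbb-bt*-rich library, beside 16.9% and 38.4% of all genes. Scaled to the named genes, 27 were lower and 0 higher, beside 48.6% and 21.4% of all genes, so both counts depended on the scaling, and the overlaps given here are those of FPKM. Of the extracellular modulators 6 of 8 were lower there. *Fstl1*, a secreted follistatin-like glycoprotein, was at 165, 108 and 18.0 FPKM in bone and at 135, 19.0 and 13.4 in osteoblasts. *Fst*, which encodes the activin and BMP antagonist follistatin, was at 41.7, 14.0 and 1.50 FPKM in bone and at 22.9, 2.23 and 2.39 in osteoblasts. Both were high where *Grem1* was high.

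The receptors spanned narrower ranges than *Grem1* or *Fst*. Of the 4 type I receptors of the list, *Acvr1* and *Acvrl1* had no named feature, so their levels are not known. Of the 2 with a named feature, only *Bmpr1a* was above the minimum. *Bmpr1a* was at 11.3, 5.53 and 2.01 FPKM in bone and at 5.14, 2.60 and 2.59 in osteoblasts. *Bmpr2*, the main type II receptor, was at 11.2, 5.92 and 2.25 FPKM in bone and at 6.21, 2.67 and 2.49 in osteoblasts. Both were lower in the *Hbb-bt*-rich libraries, as was *Acvr2a*, an activin and BMP type II receptor (0.630 to 0.752 against 1.57 to 3.19 FPKM). *Bmpr1b* did not exceed 0.0873 FPKM in any library. The co-receptor *Eng* (7.89 to 23.3 FPKM), also an endothelial gene, and the pseudoreceptor *Bambi* (3.40 to 6.58) overlapped.

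Inside the cell, *Smad4*, the common partner SMAD, was at 9.02 to 20.7 FPKM, and *Smad5*, a SMAD phosphorylated by BMP receptors, at 6.04 to 13.2, with overlap between the libraries. *Smurf1*, a ubiquitin ligase acting on SMADs, ranged from 4.55 to 10.0 FPKM. Of the target genes, *Id3* was at 175, 82.4 and 35.2 FPKM in bone and at 84.4, 55.1 and 38.9 in osteoblasts, lower in every *Hbb-bt*-rich library. *Id1*, another early target, was at 11.7 to 26.9 FPKM and overlapped. Of the 7 targets above the minimum, 2 were lower there and 5 overlapped. Of the proteases that cut pro-BMPs, *Pcsk6* was the single one of the 31 genes that was higher in every *Hbb-bt*-rich library (30.5 to 35.4 against 15.7 to 25.8 FPKM), though not once scaled to the named genes, and *Furin* overlapped (17.5 to 32.0). Of the other ligands, *Bmp8b* (0.183 to 0.456 against 1.13 to 3.36 FPKM) and *Gdf6* (0 to 0.0512 against 1.20 to 3.17) were lower there, and *Bmp10*, *Gdf2* and *Cer1* were listed at 0 in all 6 libraries.

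**Figure D4:**
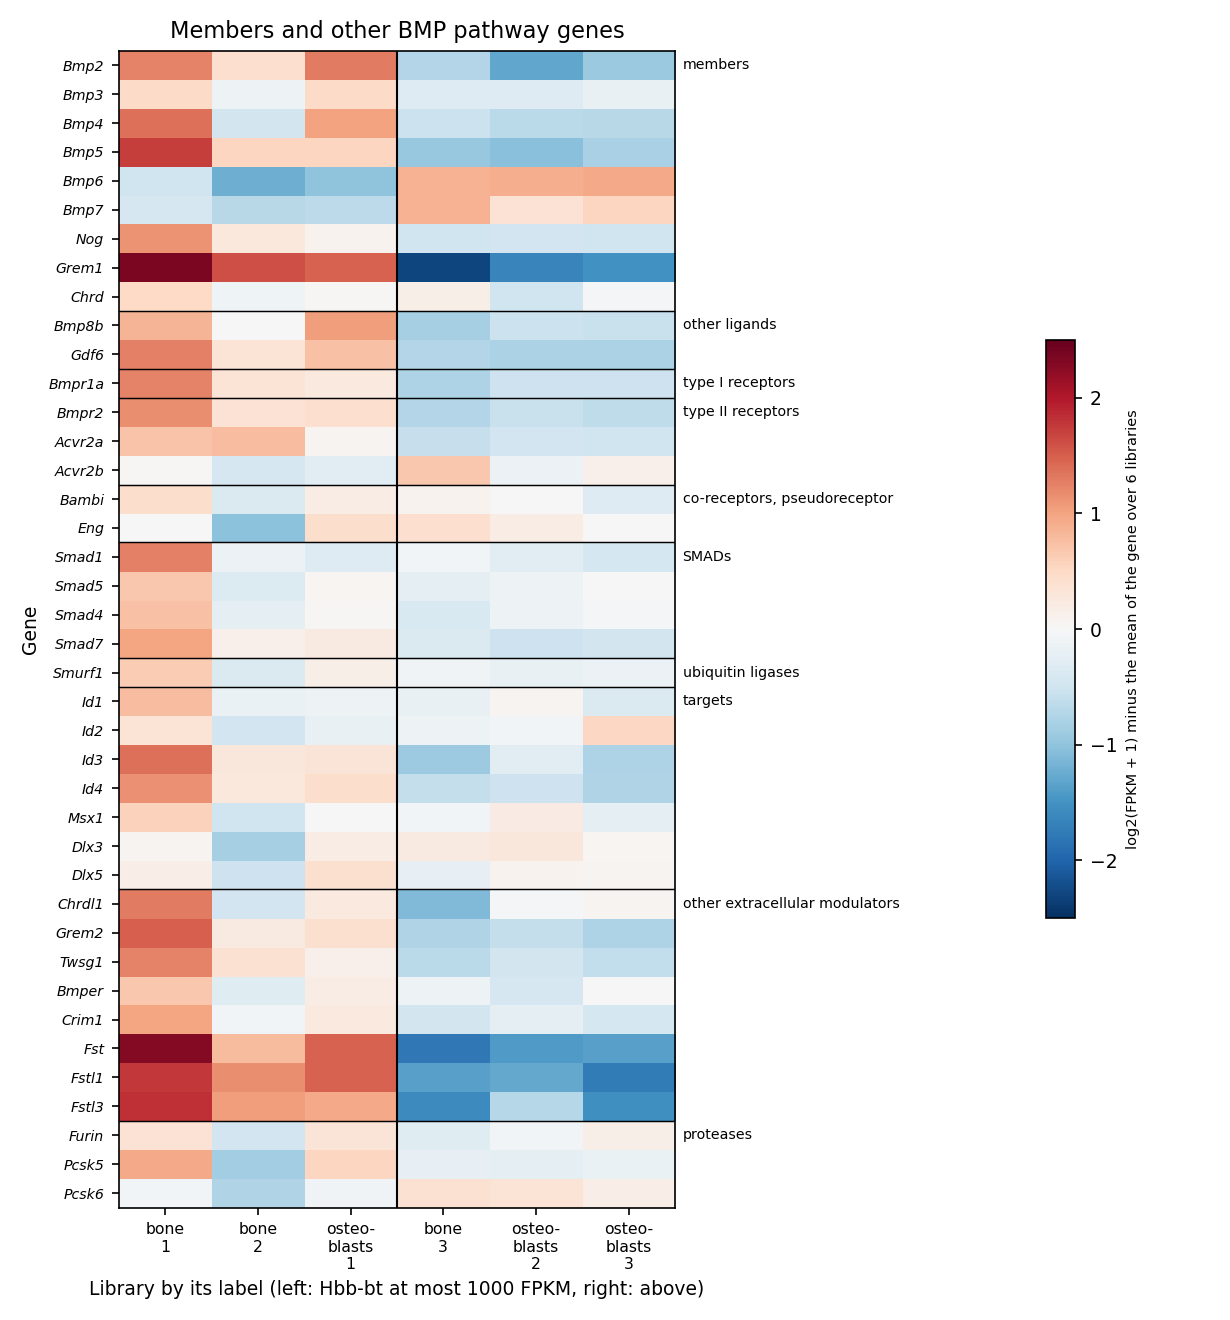
Each row is a gene of the BMP pathway with a mean of at least 1 FPKM, or one of the 9 ligands and antagonists, and each column a library, the 3 with little *Hbb-bt* on the left. Colour gives log2(FPKM + 1) minus the mean of the gene over the 6 libraries, and *Grem1*, *Fst*, *Fstl1* and *Fstl3* show the deepest contrast between the left and right columns.

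The genes with profiles most like these were sought among 12111 others by the root mean square distance between log2(FPKM + 1) profiles over the 6 libraries, each centred on its mean. *Spry4*, a feedback inhibitor of growth factor signalling, lay nearest to *Bmp2* at 0.10, and *Eda2r*, a receptor for ectodysplasin, followed at 0.131, where the median gene was at 1.23. *F13a1*, the A chain of coagulation factor XIII, was nearest to *Grem1* at 0.113 and the cytochrome *Cyp1b1* next at 0.162, where the median gene was at 2.03. *Mgp*, which encodes the calcification inhibitor matrix Gla protein, was nearest to *Bmp5* at 0.099, with *Gprin3* at 0.102. *Adamts15*, an extracellular protease, was nearest to *Bmp4* at 0.109, with *Trabd2b* at 0.131, while *Lxn* (0.056) and the potassium channel *Kcnj2* (0.064) were nearest to *Nog*. *Fam98a* (0.055) and *Fam171a1* (0.081) were nearest to *Bmp3*, and *Specc1* (0.049) and *Pold2* (0.050), a subunit of DNA polymerase delta, to *Bmp6*. The points are 6 libraries that share the split described above, so many genes lie close to any of these profiles.

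On the genome (GRCm38), the ligands and antagonists lie on 7 chromosomes, and only *Bmp2* (chr2:133552159-133562885, plus strand), *Bmp7* (chr2:172868012-172940321, minus strand) and *Grem1* (chr2:113746164-113758646, minus strand) share one. *Bmp3* is at chr5:98854415-98884396 (plus), *Bmp4* at chr14:46383520-46390669 (minus), *Bmp5* at chr9:75775364-75900310 (plus), *Bmp6* at chr13:38345107-38500302 (plus), *Nog* at chr11:89300638-89302332 (minus) and *Chrd* at chr16:20733127-20742384 (plus). All are protein-coding, and the spans are those of the assembled gene features, exons and introns together. *Bmp4* holds the antisense gene *Gm15222* within its span (0 to 0.779 FPKM), whose reads cannot be told from its own without strand.

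The 250 bases before the annotated start (RefSeq, GRCm38.p6) were read for the 5 of the 9 genes that had a promoter entry. Shown are *Grem1* and *Bmp5*, which were lower in the *Hbb-bt*-rich libraries by the widest gaps among these 5, *Bmp4*, which was lower by a narrow one, and *Bmp6*, which was higher. Capitals mark matches on either strand to the GC box GGGCGG, the CCAAT box CCAAT, the palindrome GGCGCC and the E-box CACGTG, and each sequence runs 5′ to 3′ on the strand of the gene.
Grem1: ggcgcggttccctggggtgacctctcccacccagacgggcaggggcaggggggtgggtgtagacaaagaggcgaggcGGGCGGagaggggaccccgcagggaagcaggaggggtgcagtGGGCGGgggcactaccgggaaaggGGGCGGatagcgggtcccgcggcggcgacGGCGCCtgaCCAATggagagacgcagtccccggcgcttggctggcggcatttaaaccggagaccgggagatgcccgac
Bmp5: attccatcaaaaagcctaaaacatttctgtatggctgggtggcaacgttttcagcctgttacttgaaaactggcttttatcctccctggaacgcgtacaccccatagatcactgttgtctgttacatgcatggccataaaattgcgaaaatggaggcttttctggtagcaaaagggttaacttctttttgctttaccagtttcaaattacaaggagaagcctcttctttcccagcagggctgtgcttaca
Bmp4: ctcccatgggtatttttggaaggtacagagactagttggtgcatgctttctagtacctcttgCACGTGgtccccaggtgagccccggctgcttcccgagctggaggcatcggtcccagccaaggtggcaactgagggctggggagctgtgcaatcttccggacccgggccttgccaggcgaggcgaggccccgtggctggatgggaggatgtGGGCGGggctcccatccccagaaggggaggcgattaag
Bmp6: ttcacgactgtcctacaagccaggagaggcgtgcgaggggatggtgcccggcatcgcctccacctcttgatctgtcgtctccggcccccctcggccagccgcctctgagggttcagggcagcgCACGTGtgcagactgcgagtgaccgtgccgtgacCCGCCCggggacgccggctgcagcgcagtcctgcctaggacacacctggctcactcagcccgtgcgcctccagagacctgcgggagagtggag
These are chr2:113758649-113758898 (minus) for *Grem1*, chr9:75775115-75775364 (plus) for *Bmp5*, chr14:46390670-46390919 (minus) for *Bmp4* and chr13:38345466-38345715 (plus) for *Bmp6*. The assembled *Bmp6* feature starts at 38345107, so its window lies inside the span used for its FPKM. The *Chrd* window, not shown, lies inside the RefSeq span of that gene, which starts at 20731425. The *Grem1* window was 72.0% G or C with 24 CpG dinucleotides, *Bmp6* 68.8% with 22 and *Bmp4* 63.2% with 11, while *Bmp5* was 42.8% with 4. The medians over 32851 promoters of the same length were 52.4% and 6, so *Bmp5* was the poorest in CpG of those shown. *Grem1* held 3 GC boxes, a CCAAT box and a GGCGCC palindrome, and *Bmp4* and *Bmp6* each held a GC box and an E-box. The marked matches do not overlap one another. Of all promoters 32.7% held the GC box, 33.8% the CCAAT box, 9.59% the palindrome and 6.02% the E-box. The TATA box TATAAA (12.4% of promoters) and the RUNX-type letters TGTGGT (14.0%) were in none of the 5 windows. No feature was shared by the genes that were lower in the *Hbb-bt*-rich libraries and absent from *Bmp6*, since *Bmp5* held no match and *Bmp4* the same pair as *Bmp6*.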

How the data were processed

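RNA was sequenced from 6 libraries, 3 labelled bone and 3 labelled osteoblasts, described as total RNA and made with a kit (TruSeq RNA v2) that does not mark strand. Reads were aligned and transcripts assembled by the authors on GRCm38; the submitters' processing notes name HISAT2 2.0.5, StringTie 1.3.3 and SAMtools 1.7. The authors deposited FPKM, TPM and mean read coverage for 93288 to 93290 features per library, replicates not pooled. FPKM and TPM are scaled per library, so they shift with any abundant transcript. FPKM were summed by gene name. Features without a name (44470) stayed out of the genes tested.

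log2(FPKM + 1) was fitted with limma 3.58.1 (R 4.3.3, trend, two-sided, Benjamini-Hochberg over all genes, threshold 0.05) on the 12112 genes with a mean of at least 1 FPKM, and without that filter for *Bmp7* and *Chrd*. On simulated data with 200 genes changed in 12112 for this comparison, 199 were recovered with 11 other calls, at a log2 change of 2 and a spread of 0.3. The measured libraries varied more, with a median SD of 0.66 in bone and 0.48 in osteoblasts, so this recovery does not carry over to them. Tables were handled with Python 3.11.15, pandas 2.3.3 and numpy 2.4.6. Aligned pairs were estimated from deposited coverage and FPKM, so floors (3 pairs) are approximate and cover counting error only. Promoters came from RefSeq (GRCm38.p6), 5 of 9 genes matched. The genome given was another build, and only its annotated transcript sequences were used, for 75-base stretches shared between genes.

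Named were all 9 ligands and antagonists, the 2 pathway genes per role with the highest mean FPKM (none was called), and the 2 nearest genes by profile for each of the 7 with a mean of at least 1 FPKM. *Bmp10*, *Gdf2*, *Cer1* and *Fstl3*, and genes overlapping a named one, were added after their values were seen. The genes and lists were chosen with earlier results of these data known. Alternatives covered scaling, pseudocount, filter, TPM, coverage, replicate block and leaving out libraries.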

Additional observations from a re-analysis of the deposited data

How the results depend on the processing

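No BMP ligand or antagonist was called under any of the alternatives with a test, the lowest adjusted p of limma being 0.0794 for *Grem1* without bone replicate 3. The count of genes called over the whole table, 0 as reported, ran from 0 to 300 when 1 library was left out: 77 without bone replicate 3 (66 higher, 11 lower) and 300 without osteoblasts replicate 1 (262 higher, 38 lower). With the replicate number as a block it was 49 (46 higher, 3 lower). Deviations of same-numbered libraries correlated at 0.84, −0.75 and 0.83. Their signs followed the *Hbb-bt* split, as did those of differently numbered libraries (0.80 for bone replicate 2 with osteoblasts replicate 1). These correlations therefore cannot tell whether the numbers pair the libraries. No ligand or antagonist was called under the block. Other pseudocounts, filters, scalings and TPM gave 0 calls.

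Leaving out 1 library moved the log2 difference of *Bmp2* from −1.42 to −0.12, *Bmp3* from −0.26 to 0.21, *Bmp4* from −0.82 to 0.37, *Bmp5* from −1.56 to −0.22, *Bmp6* from 0.10 to 1.21, *Bmp7* from −0.15 to 0.63, *Nog* from −0.99 to −0.19, *Grem1* from −2.54 to −0.22 and *Chrd* from −0.50 to −0.19. The sign turned for *Bmp3* without bone replicate 1 (0.21), osteoblasts replicate 2 (0.13) or 3 (0.07), for *Bmp4* without the same libraries (0.37, 0.02, 0.03), and for *Bmp7* without bone replicate 1 (−0.01), bone replicate 2 (−0.15) or osteoblasts replicate 3 (−0.07). Between bone replicate 3 and osteoblasts replicate 1 alone, a comparison added after the data were seen, the values were *Bmp2* 2.03, *Bmp3* 0.79, *Bmp4* 1.54, *Bmp5* 1.50, *Bmp6* −1.86, *Bmp7* −1.52, *Nog* 0.59 and *Grem1* 3.77. In all, 17 of the values under the 15 or 16 alternatives per gene turned sign, and 125 kept it. The kept ones include fits without the limma trend, with the replicate block and without the filter. Those fits leave the difference itself unchanged, so their signs could not turn. The cause of the turned signs was not tested.

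Coverage in place of FPKM, also added later, lowered the difference of *Bmp6* from 0.57 to 0.08 on the log2 scale with 1 added, while the ratio of its means, 1.68 and 1.71, hardly moved. Taking percentiles among all genes above 0 moved 14 of 18 label means by more than their spread. All moved upward, which is fixed in advance, since only genes at lower levels join the reference. By FPKM, depth limits *Bmp7* most, which was below its approximate floor in bone replicate 2 and at it in osteoblasts replicate 1. By coverage, *Bmp6* was below its approximate floor in bone replicates 1 and 2 and in osteoblasts replicate 1.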
